A study of Mus musculus with 4 samples.

Results

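The 8 genes described here are the metallothioneins Mt1, Mt2, Mt3 and Mt4, the metal-sensing transcription factor Mtf1 and the zinc importers Slc39a4, Slc39a10 and Slc39a14, read by gene symbol from a table of 20377 genes. All 8 had a row. Mt1 and Mt2 were chosen by their RPKM, which is among the highest in these same 4 libraries, and the other 6 because they belong to the same system, so the levels are a description and support no test of abundance. RNA sequencing was done on 4 libraries of 1 group, rGBC2. These were primary gallbladder cells of 8-week-old MIP-GFP mice (B6.Cg-Tg(Ins1-EGFP)1Hara/J, C57BL/6 background), in which an Ins1 promoter drives the green fluorescent reporter. The cells had been reprogrammed for 10 days with Pdx1, Ngn3, Mafa and PAX6 and with compounds that the labels do not name, and reporter-positive cells were then sorted. All 4 libraries share the factors, the compounds and the reporter, and the series offers no unreprogrammed group for these values. The growth medium contained insulin, transferrin and selenium, and the labels give no zinc or copper dose.

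Metallothioneins are small cysteine-rich proteins that bind zinc and copper and buffer them inside the cell. When free zinc rises, the zinc finger factor MTF-1, the product of Mtf1, binds metal response elements and raises transcription of Mt1 and Mt2, which also respond to glucocorticoids and oxidative stress. ZIP proteins, encoded by the Slc39a genes, bring zinc into the cytoplasm, and ZnT proteins, encoded by the Slc30a genes, move it out or into vesicles. Beta cells store insulin with zinc in secretory granules, which makes zinc handling part of their normal work.

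The labels do not say whether the 4 libraries came from separate animals or cultures, so p-values measure only the spread between these libraries, which may be partly technical. Estimated depth was 22.2 M to 32.8 M reads. Replicates 3 and 4 were far more alike than any other pair. The root mean square difference on the log2(RPKM + 1) scale, over 11967 genes with a mean of at least 1 RPKM, was 0.164 between them and 0.573 to 0.798 for the other pairs. RPKM is a read number scaled to the length of the transcript and the size of the library. On estimated reads the chi-square per degree of freedom was 13.4 for this pair and 141 to 346 for the others, which does not tell separate cultures from repeat libraries of 1 culture. The labels number them as separate samples, so they were counted as 2, and n = 4 may overstate the number of independent samples. Reads of 4 Y-linked genes were found in replicates 1 and 2, for example Eif2s3y at 48.5 and 44.7 RPKM, and all 4 were listed at 0 in replicates 3 and 4. Replicates 1 and 2 thus held male cells and replicates 3 and 4 showed none, so these pairs did not come from 1 pool of cells. Sex cannot be told apart from other differences between the pairs. The difference between replicates 3 and 4 and replicates 1 and 2 also followed base composition across genes (Spearman 0.571 with the GC content of the transcript, across 11842 genes, which are not independent replicates). Values are therefore given for each library.

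The 4 metallothionein genes lie side by side in 43.1 kb of chromosome 8, all on the plus strand. In the mm9 coordinates of the deposited table Mt4 runs from 96661103 to 96662931, Mt3 from 96676506 to 96678048, Mt2 from 96696517 to 96697467 and Mt1 from 96702988 to 96704227. Their upstream sequences are shown because the cluster ranged from 3709 RPKM to near 0. Each line gives the 250 bases before the RefSeq start of the gene, from RefSeq on GRCm38.p6, plus strand, 5′ to 3′. Capitals mark matches to the core of the metal response element, TGCACNC or TGCGCNC, on either strand. The windows are chr8:94178839-94179088 for Mt1, chr8:94172368-94172617 for Mt2, chr8:94152357-94152606 for Mt3 and chr8:94136954-94137203 for Mt4.
Mt1: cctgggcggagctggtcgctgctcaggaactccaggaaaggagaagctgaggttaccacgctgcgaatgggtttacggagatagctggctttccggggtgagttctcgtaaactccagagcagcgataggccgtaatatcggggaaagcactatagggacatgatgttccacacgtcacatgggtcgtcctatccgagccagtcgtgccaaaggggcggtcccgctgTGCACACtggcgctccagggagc
Mt2: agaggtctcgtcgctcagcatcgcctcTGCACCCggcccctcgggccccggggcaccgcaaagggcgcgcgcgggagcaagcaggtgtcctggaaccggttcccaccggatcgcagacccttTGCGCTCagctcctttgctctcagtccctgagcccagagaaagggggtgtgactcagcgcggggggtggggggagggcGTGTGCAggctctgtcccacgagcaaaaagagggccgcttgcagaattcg
Mt3: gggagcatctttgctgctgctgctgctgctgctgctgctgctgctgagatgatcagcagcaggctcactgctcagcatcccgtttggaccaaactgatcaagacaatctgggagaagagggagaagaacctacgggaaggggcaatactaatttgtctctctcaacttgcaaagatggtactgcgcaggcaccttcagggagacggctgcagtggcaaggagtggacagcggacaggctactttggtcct
Mt4: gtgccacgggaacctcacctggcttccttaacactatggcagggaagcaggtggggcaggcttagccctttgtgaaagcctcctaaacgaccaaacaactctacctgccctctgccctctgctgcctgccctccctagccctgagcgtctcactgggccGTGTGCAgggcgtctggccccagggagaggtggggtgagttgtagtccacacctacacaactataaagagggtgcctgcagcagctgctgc
The distances between the 4 starts are the same in both sources (15403, 20011 and 6471 bases from Mt4 to Mt1), so the windows sit at the starts that the deposited table uses.

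The Mt2 window held 3 matches, those of Mt1 and Mt4 held 1 each and that of Mt3 held 0. Of 32851 RefSeq promoter windows of the same length, 21.4% held at least 1 match and 1.26% at least 3. A single match is therefore common. A longer window adds the 50 bases after the annotated start, which were not tested for being transcribed in these cells. In it Mt1 had 3 matches, Mt2 had 4, and Mt3 and Mt4 had 1 each. Of all windows of that length, 1.97% had at least 3 and 0.517% at least 4. Matches in Mt1 thus lay mostly beyond the annotated start, at bases 3 and 21 counted from it. Mt2 also had 1 match to the antioxidant response element core TGACNNNGC, which overlaps no metal response element match and occurs in 10.2% of windows of 250 bases, and Mt4 was the only one of these 4 windows with a TATAAA box, found in 12.4% of windows. The promoter windows of Mtf1 and Slc39a10 from the same source had 0 matches to the metal response element core. Slc39a4 and Slc39a14 had no window there and were not scanned. No match says only that these letters are not in the window. The start used in these cells was not measured. If it differs from the annotated start, as it may for Mt1, promoter elements such as a TATAAA box can lie outside these windows. The windows are therefore no comparison of working promoters.

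Of the 4 metallothioneins, Mt1, Mt2 and Mt3 were transcribed at very high levels and Mt4 was near 0. Mt1, one of the pair of metallothioneins found in most tissues, was measured at 1711, 3709, 2675 and 2902 RPKM in replicates 1 to 4 (2749 ± 822 RPKM, SD, n = 4). Mt2, its partner in most tissues, was measured at 1220.5, 2539.5, 2291 and 2507 RPKM (2139 ± 622 RPKM). Replicate 1 was lowest and replicate 2 highest for both genes, and replicates 3 and 4 lay between them. By level, Mt1 ranked 12th, 4th, 11th and 11th of all genes in replicates 1 to 4, and Mt2 ranked 18th, 10th, 13th and 12th.

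Mt3, a metallothionein best known from neurons of the brain, where it was found as a growth inhibitory factor, was measured at 884, 364, 1509.6 and 1643 RPKM in replicates 1 to 4 (1100.2 ± 592 RPKM, SD, n = 4). It was lowest in replicate 2, where Mt1 and Mt2 were highest, and it was high in replicates 3 and 4. Its rank was 29th, 162nd, 19th and 19th. Without replicate 2 its mean was 1346 RPKM. Mt4, a metallothionein of stratified squamous epithelium, was measured at 0.14, 0.31, 0.41 and 0.21 RPKM in the same libraries. At the estimated depths these values are 1.3, 2.7, 4.0 and 2.7 reads. Only replicate 3 lay above the level of 3 reads, which for this transcript was 0.31, 0.34, 0.31 and 0.23 RPKM, so any difference of Mt4 between libraries was not detectable at this depth. The genes on either side of the cluster were at intermediate levels, with Bbs2, a ciliary protein gene, at 11.97 ± 1.68 RPKM and Nup93, a nuclear pore gene, at 82.4 ± 8.56 RPKM.

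**Figure D1:**
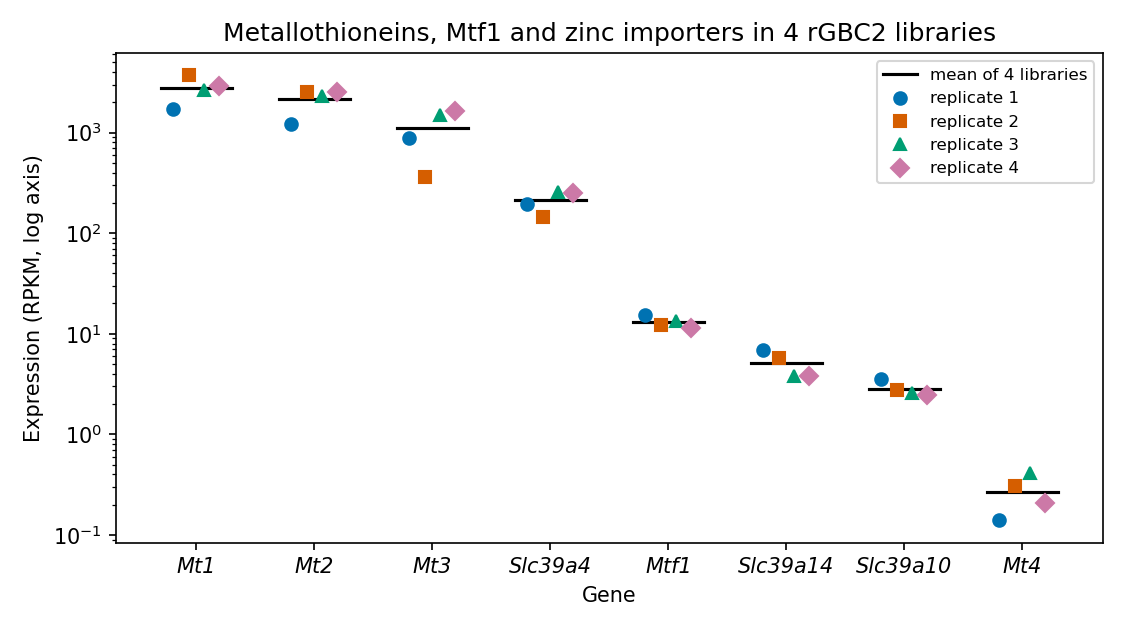
Expression of the 8 genes in RPKM on a log axis, 1 symbol per library and a black bar for the mean of the 4 libraries. Mt1, Mt2 and Mt3 lie between 364 and 3709 RPKM, Slc39a4 between 146 and 254 RPKM, Mtf1, Slc39a14 and Slc39a10 between 2.48 and 15.4 RPKM, and Mt4 below 0.5 RPKM.

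Together the 4 metallothioneins summed to 3816, 6613, 6476 and 7052 RPKM in replicates 1 to 4, which was 0.792%, 1.26%, 1.16% and 1.21% of the summed RPKM of each library. The share of Mt3 in that sum was 23.2%, 5.51%, 23.3% and 23.3%. It was nearly the same in 3 libraries although their sums ranged from 3816 to 7052 RPKM, and replicate 2 stood apart. Replicates 3 and 4 were nearly alike, so these 3 libraries may not be 3 independent samples. The balance also differed within them, as the ratio of Mt3 to Mt2 was 0.725 in replicate 1 and 0.659 and 0.655 in replicates 3 and 4. Mt1 exceeded Mt2 in 4 of 4 libraries, with ratios of 1.40, 1.46, 1.17 and 1.16. The difference was 0.37 ± 0.17 on the log2(RPKM + 1) scale (SD, n = 4; exact two-sided sign-flip permutation p = 0.13, adjusted over 3 differences 0.13). With 4 libraries that is the smallest p the test can give, so the difference is larger than its SD but cannot pass 0.05. A comparison between genes in RPKM also depends on the transcript model of each. In the GENCODE M21 transcripts matched by RefSeq identifier, 56.8% of the 30-base stretches of Mt2 also occur in transcripts of Gm45774 or Pip5k1a, against 0% for Mt1, Mt3 and Mt4. How the authors treated reads with several matches is not given in the sources used here, so the level of Mt2 is uncertain.

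**Figure D2:**
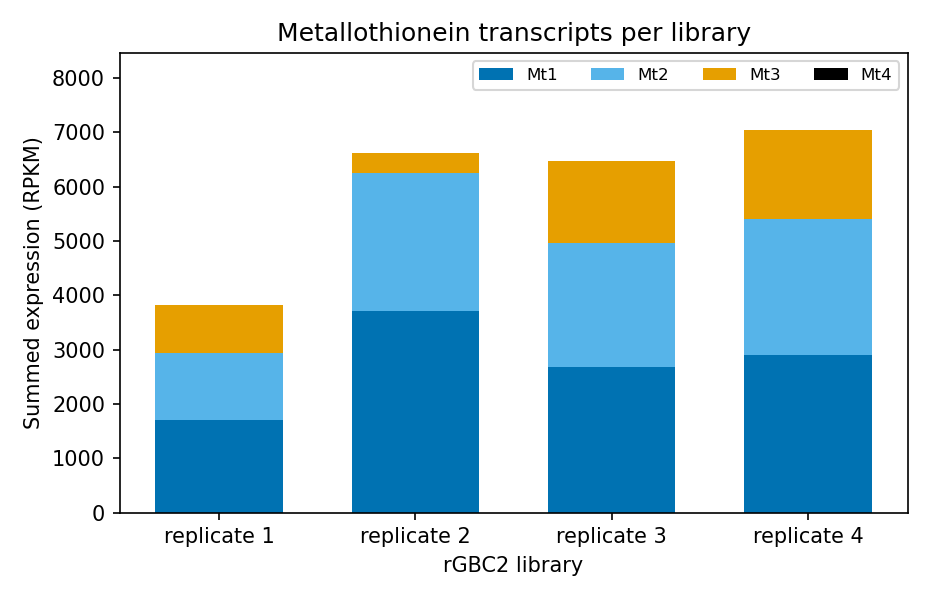
Stacked bars of Mt1, Mt2, Mt3 and Mt4 in RPKM for each rGBC2 library, from 0. Mt3 takes 23.2% to 23.3% of the bar in replicates 1, 3 and 4 and 5.51% in replicate 2, and Mt4 is too low to be seen.

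Markers of beta cells and some markers of neurons moved with these differences, and their part in them was not tested. The beta-cell genes were lowest in replicate 1, as Mt1 and Mt2 were. Ins2, an insulin gene, was measured at 1091, 3704, 3851 and 4240.2 RPKM in replicates 1 to 4 and Iapp, the islet amyloid peptide, at 2075, 4871, 4529 and 5201 RPKM. The ratio of Mt1 to Ins2 was 1.57, 1.00, 0.695 and 0.684, so the metallothionein level was above that of the insulin gene in replicate 1 and below it in replicates 3 and 4. Mt3 is known from neurons, and of 12 neuronal and glial markers chosen after the Mt3 values were seen, 11 had a row. Of these, 5 lay above 1 RPKM, 3 below and 3 in neither direction, a share above of 45.5% beside 65% of all genes tested. Tubb3, a neuronal tubulin that is also made by endocrine cells, was measured at 86.9, 76.8, 197 and 194 RPKM and Syp, synaptophysin, at 33.9, 24.4, 105 and 109 RPKM, both lowest in replicate 2 and high in replicates 3 and 4. Mbp, myelin basic protein, whose locus also makes transcripts outside myelin, was at 71.3, 74.3, 121 and 118 RPKM. Nefl, a neurofilament subunit, was at 62.3, 51.6, 68.9 and 64.9 RPKM and Rbfox3, a neuronal splicing factor, at 1.07, 2.26, 2.80 and 2.65 RPKM. Of the glial markers, Gfap, an astrocyte filament, was at 0.67, 0.16, 0.58 and 0.52 RPKM, lowest in replicate 2. S100b, a calcium-binding protein, was at 2.81, 2.53, 0.38 and 0.32 RPKM, higher in replicates 1 and 2, and Sox10, a glial factor, was at 0, 0, 0.05 and 0.01 RPKM. The GC content of Mt3 was 62.3%, that of Mt1 58.1% and that of Mt2 55.6%, against a median of 50.9% over genes.

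Mtf1, the metal-sensing activator of Mt1 and Mt2, was transcribed at a moderate and even level. It lies on chromosome 4 from 124479792 to 124527044 (mm9) and was measured at 15.4, 12.2, 13.4 and 11.4 RPKM in replicates 1 to 4 (13.1 ± 1.72 RPKM, SD, n = 4). The highest value was 1.35 times the lowest. Its SD on the log2(RPKM + 1) scale was 0.174, and 18.1% of 11967 genes with a mean of at least 1 RPKM varied less. Of its 30-base stretches, 9.1% also occur in transcripts of 1110065P20Rik, so part of its reads may be shared. In replicate 1, where Mt1 and Mt2 were lowest, Mtf1 was highest.

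Of the 3 zinc importers among these genes, Slc39a4 was by far the most abundant. Slc39a4 encodes ZIP4, the importer that takes up dietary zinc in the intestine and whose loss causes the zinc deficiency disease acrodermatitis enteropathica. It lies on chromosome 15 from 76442812 to 76447282 on the minus strand and was measured at 196, 146, 254 and 253 RPKM in replicates 1 to 4 (212 ± 52.0 RPKM, SD, n = 4). Replicate 2 was lowest and replicates 3 and 4 were highest, and these libraries were also lowest and highest for Mt3.

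Slc39a14 encodes ZIP14, which carries zinc, iron and manganese and is raised by interleukin 6 in liver. It lies on chromosome 14 from 70703273 to 70748240 and was measured at 6.96, 5.73, 3.83 and 3.82 RPKM (5.08 ± 1.54 RPKM). Slc39a10 encodes ZIP10, whose gene MTF-1 represses when zinc is ample. It lies on chromosome 1 from 46864388 to 46910354 and was measured at 3.56, 2.76, 2.60 and 2.48 RPKM (2.85 ± 0.487 RPKM). Both were higher in replicates 1 and 2 than in replicates 3 and 4, which is the opposite side from Slc39a4. Transcript GC content was 54.3% for Slc39a14, 44.5% for Slc39a10 and 56.9% for Slc39a4, so Slc39a14 moved against the trend with base composition.

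In 4 of 4 libraries Slc39a14 exceeded Slc39a10, and the mean difference in log2(RPKM + 1) was 0.63 ± 0.22 (SD, n = 4; exact two-sided sign-flip permutation p = 0.13, adjusted 0.13). The difference Slc39a10 minus Slc39a4 was -5.76 ± 0.47 on the same scale, with Slc39a10 lower in 4 of 4 libraries (exact two-sided sign-flip permutation p = 0.13, adjusted 0.13). As a ratio of RPKM, Slc39a4 stood 55, 52.8, 97.9 and 102 times above Slc39a10 in replicates 1 to 4. In the order of mean level, Mt1, Mt2, Mt3, Slc39a4, Mtf1, Slc39a14, Slc39a10 and Mt4, each gene exceeded the next in 4 of 4 libraries. The ranges of Mt1 and Mt2 overlapped, as did those of Mt2 and Mt3, and the latter pair differed by 1.12 ± 1.12 on the log2(RPKM + 1) scale, no more than its spread. All lower neighbours had ranges that did not overlap. By limma, with p-values adjusted by Benjamini-Hochberg over all genes tested, 7 of the 8 genes lay above 1 RPKM, against 65% of 16919 genes, and Mt4 lay below it, against 26.1%. Mt1 and Mt2 were chosen by their level and the others as parts of the same system, so nothing is read from these counts.

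The wider set of zinc transporters put Slc39a4 second among the importers. Of 11 other Slc39a genes, 8 lay above 1 RPKM, 2 below and 1 in neither direction, a share above of 72.7% beside 65% of all genes tested, and the median of their mean levels was 26.5 RPKM, against 7.38 RPKM for all genes tested. Slc39a8, which encodes ZIP8, an importer of zinc and manganese, was highest at 324 ± 21.3 RPKM (SD, n = 4) and stood above Slc39a4 in 4 of 4 libraries, with ratios of 1.53, 2.34, 1.35 and 1.23. Slc39a7, which encodes ZIP7, the channel that releases zinc from the endoplasmic reticulum, was at 166 ± 31.1 RPKM and Slc39a11, encoding ZIP11, at 85.2 ± 21.6 RPKM. Slc39a5, whose product ZIP5 sits on the basolateral side of gut and pancreatic cells, was listed at 0 in replicates 1 and 2 and was at 0.03 and 0.02 RPKM in replicates 3 and 4.

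Of 10 zinc exporters, 7 lay above 1 RPKM, 1 below and 2 in neither direction, a share above of 70% that is near the 65% of all genes tested. Their median was 13.3 RPKM. Slc30a9 at 38.3 ± 5.72 RPKM, Slc30a5 at 33.4 ± 3.36 RPKM and Slc30a4 at 51.7, 38.7, 10.2 and 8.48 RPKM in replicates 1 to 4 led the list. Slc30a10, a manganese exporter by function, was lowest at 0.01 to 0.05 RPKM. None of the exporters had a mean of 40 RPKM, whereas 4 importers, Slc39a8, Slc39a4, Slc39a7 and Slc39a11, had means of 85.2 RPKM and more.

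**Figure D3:**
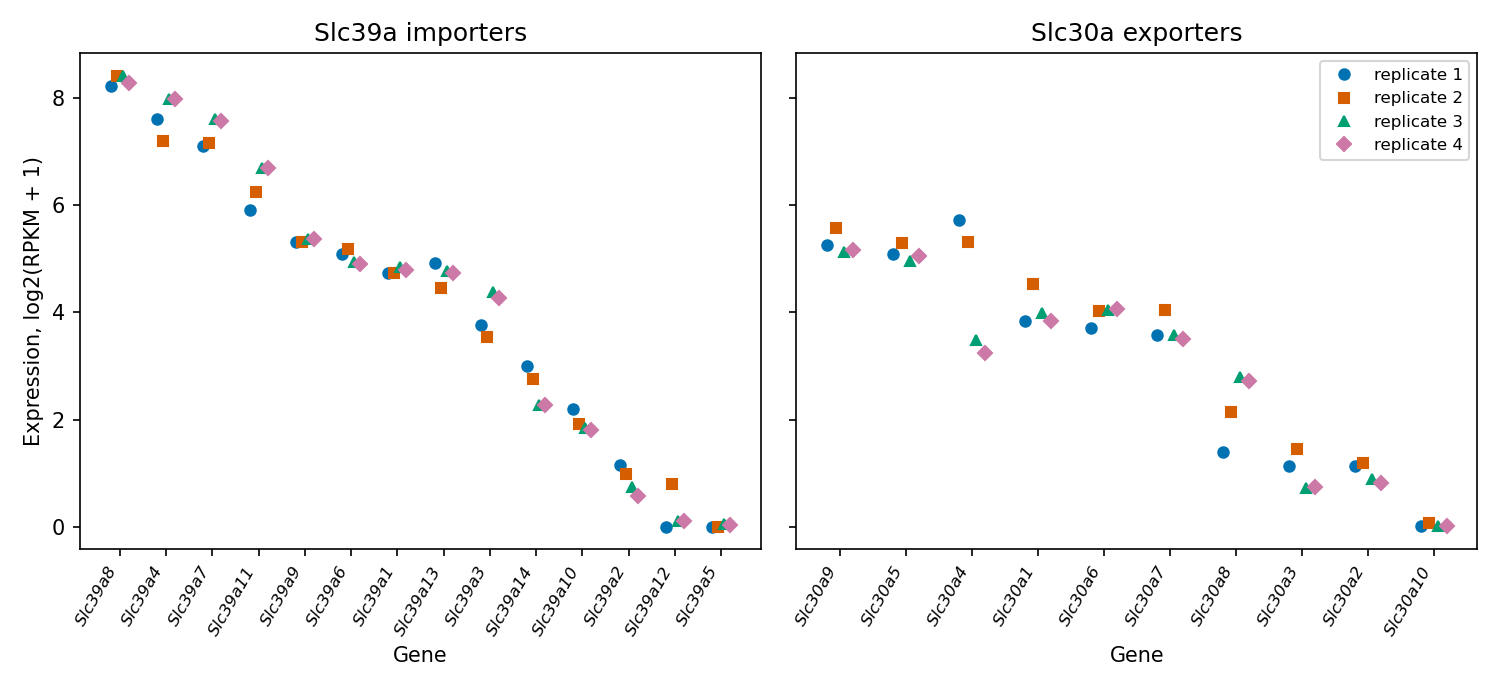
Levels of the Slc39a importers (left) and the Slc30a exporters (right) on the log2(RPKM + 1) scale, ordered by mean level, 1 symbol per rGBC2 library. Slc39a4 stands second among the importers, and Slc39a14 and Slc39a10 stand near the low end.

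Of 11 other genes that respond to metals or to MTF-1, 9 lay above 1 RPKM, against 65% of all genes tested. Pgf, a growth factor, lay below it at 0.435 ± 0.214 RPKM (SD, n = 4) and Hamp, the iron hormone hepcidin, was listed at 0 in every library. The median was 15.9 RPKM. Sepw1, a selenoprotein, was at 354, 265, 661 and 689 RPKM in replicates 1 to 4, lowest in replicate 2 as Mt3 and Slc39a4 were. Csrp1, a LIM protein, was at 86.5 ± 6.56 RPKM and Hmox1, heme oxygenase 1, at 79.3 ± 15.7 RPKM. Slc30a1, the plasma membrane zinc exporter that MTF-1 activates together with Mt1, was measured at 13.2, 22.0, 14.9 and 13.4 RPKM, highest in replicate 2 as Mt1 was. Slc30a1 and Pgf were named after their values were seen.

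Genes of copper and iron handling lay above 1 RPKM in 11 of 13 and 10 of 13 cases, against 65% of all genes tested, with medians of 39.3 and 23.4 RPKM. One further iron gene of the list had no row. Atox1, a copper chaperone, was at 343 ± 97.0 RPKM, Sod1, the copper and zinc superoxide dismutase, at 263 ± 46.3 RPKM and Cox17, which delivers copper to cytochrome oxidase, at 233 ± 27.4 RPKM. Steap4, a metal reductase, was lowest at 0.01 to 0.04 RPKM. The ferritin subunits Fth1 at 777 ± 111 RPKM and Ftl1 at 462 ± 55 RPKM led the iron list, followed by Pcbp1, an iron chaperone, at 193 ± 20.6 RPKM. Heph, an iron oxidase, was at 0.03 RPKM in replicate 1 and listed at 0 in the others. Fth1 was thus below Mt1 and Mt2 in every library.

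Lists were also read for the other signals known to act on metallothionein genes, and differences between these lists were not tested. Of 11 glucocorticoid response genes, 9 lay above 1 RPKM (median 12.98 RPKM), with Ddit4 at 77.7 ± 9.78 RPKM, the receptor gene Nr3c1 at 30.02 ± 8.37 RPKM and Sgk1 at 25.2 ± 7.40 RPKM, while Tat, a liver target, was at 0.04, 0, 0 and 0.01 RPKM. Oxidative stress genes lay above it in 9 of 10 cases (median 43.7 RPKM), led by Txnrd1, thioredoxin reductase, at 169 ± 12.1 RPKM, Hmox1, and the regulator Nfe2l2 at 66.0 ± 30.4 RPKM. Slc7a11, a cystine transporter, was at 2.05, 2.12, 0.08 and 0.09 RPKM with no call either way (adjusted p = 0.721 in limma). In the interleukin 6 and acute phase list only 3 of 11 genes lay above 1 RPKM and 4 below, with a median of 0.858 RPKM. The 3 were Stat3 at 60.9 ± 10.8 RPKM, the shared receptor subunit Il6st at 20.5 ± 2.03 RPKM and Socs3 at 6.84 ± 1.30 RPKM, and Fgb, a fibrinogen chain, was listed at 0 in every library. These counts stand beside 65% of all genes above 1 RPKM, and libraries of 1 group cannot show whether any of these inputs acted on the metallothioneins.

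Over the 4 libraries Mt1 and Mt2 varied together, and Mt3 did not follow them. Likeness was measured as the root mean square difference between log2(RPKM + 1) profiles after each was centred on its own mean, over 4 libraries, and is a description. Mt2 stood 0.151 from Mt1 and was the 114th nearest of 11966 other genes, whereas Mt3 stood 1.07 from Mt1, at place 11632. For Mt3 the nearest of these genes was Slc39a4, at 0.539 and place 649. Mtf1 and Slc39a10 stood 0.0731 apart. The spread of Mt3 was the largest of the 8 genes, with an SD of 0.998 on the log2(RPKM + 1) scale that exceeded that of 96.4% of genes, against 0.466 for Mt1, 0.505 for Mt2 and a median of 0.319 over genes.

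For each gene with a mean of at least 1 RPKM, the 3 genes nearest in pattern are named here. Dnaja4, a co-chaperone, at 28.1, 62.9, 46.0 and 49.9 RPKM in replicates 1 to 4, was nearest to Mt1 with a distance of 0.0194, followed by Ccne1 (0.0447) and Golga5 (0.0457). S100a4 (0.0231), Ubash3b (0.0296) and Manf (0.0392), an endoplasmic reticulum stress protein, were nearest to Mt2. Gdap1l1 (0.0799), Kl (0.0931) and Ak1 (0.0961) were nearest to Mt3, with Ak1, adenylate kinase 1, at 16.9, 5.45, 30.2 and 28.9 RPKM. Slc22a17 (0.0137), Tbc1d17 (0.0172) and 9030617O03Rik (0.0175) were nearest to Slc39a4. Fam120c, Nhlrc1 and Zfp414 were nearest to Mtf1, Htr5a, Fyn and 1700113I22Rik to Slc39a10, and Tirap, Cyth3 and 4933439F18Rik to Slc39a14. Distances shrink for low genes on this scale, and replicates 3 and 4 carry nearly the same information.

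**Figure D4:**
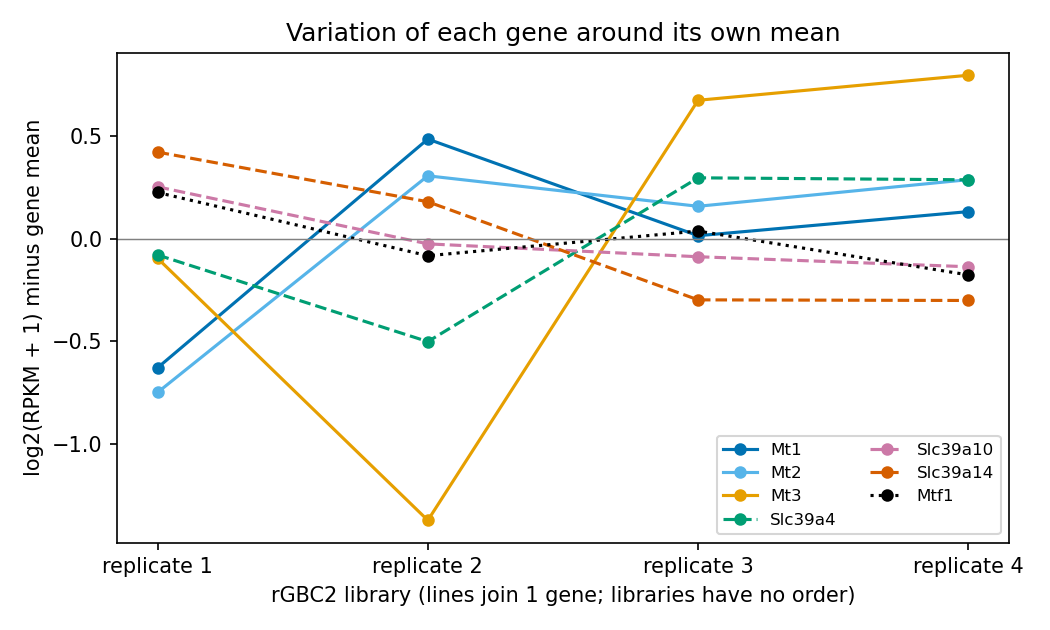
Each gene's log2(RPKM + 1) minus its own mean over the 4 rGBC2 libraries, which have no order. Mt1 and Mt2 are lowest in replicate 1, Mt3 and Slc39a4 are lowest in replicate 2, and Slc39a14 and Slc39a10 are highest in replicate 1.

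The sorted cells carried markers of beta cells and of biliary epithelium, and some markers of other cells were also transcribed, while the 3 endothelial markers were near 0. Ins1, whose promoter drives the reporter, was at 107 to 523 RPKM, Krt7, a ductal keratin, at 635 ± 186 RPKM, Epcam at 201 ± 33.7 RPKM and Krt19 at 86.0 ± 14.0 RPKM, while Sox9 was at 0.842 ± 0.276 RPKM with no call either way (adjusted p = 0.25 in limma). Liver makes metallothioneins in quantity. Of 6 hepatocyte markers, 3 lay above 1 RPKM, a share of 50% beside 65% of all genes tested. The list summed to 33.8, 55.8, 81.3 and 88.5 RPKM in replicates 1 to 4. Alb was at 2.63, 23.0, 30.3 and 35.2 RPKM, Apoa2 at 13.2, 17.5, 31.8 and 32.9 RPKM and Ttr at 17.5, 15.2, 19.0 and 20.3 RPKM. Apoa1 was at 0.48, 0.05, 0.09 and 0.14 RPKM, and Cyp3a11 and Serpina1a were listed at 0 in every library. Gapdh, abundant in most cells, was also listed near 0, so a marker at 0 can be a failed estimate. Alb and Apoa2 were lowest in replicate 1, as Mt1 and Mt2 were, whereas Ttr was lowest in replicate 2 and Apoa1 was highest in replicate 1. Summed levels were 7.08 to 12.04 RPKM for 4 acinar markers, mostly Cela1, with Pnlip and Amy2a5 at 0, 0.06 to 0.24 RPKM for 3 endothelial markers and 1.35 to 4.46 RPKM for 3 mesenchymal markers. The 3 immune markers summed to 126 to 167 RPKM, nearly all of it Cd68, a lysosomal protein gene, with Ptprc, the leukocyte antigen CD45, at 0.01, 0.01, 0 and 0 RPKM. The part of other cells in the metallothionein levels was not tested. In bulk samples, more cells that make a transcript and more transcript per cell cannot be told apart.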

How the data were processed

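Gene expression was measured by RNA sequencing of 4 rGBC2 libraries. The authors deposited RPKM values, rounded to 2 decimals, for 20377 genes with 1 RefSeq transcript each. The submitters' processing notes name CASAVA 1.8.2, Bowtie and genome build mm9. Not given in the sources used here are the counting program, its strand setting, the transcript lengths and how reads with several matches were treated. Gapdh, abundant in most cells, is listed at 0 to 0.2 RPKM, so a low value can be a failed estimate. Another 6 per-sample columns match no sample of this series and were not used.

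The depth of each library was estimated from the RPKM of single reads in 993 olfactory receptor genes that span under 1100 bases. The step was fitted to 14 to 32 low values per library, so the depths of 24.1, 22.2, 24.6 and 32.8 M reads are estimates, and floors of 3 reads cover counting error only. Transcript length and GC content came from GENCODE M21, matched by RefSeq identifier for 98.1% of genes, and that annotation (GRCm38) gave no coordinate for a deposited value.

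The test across genes compared log2(RPKM + 1) with 1 RPKM using limma 3.58.1 in R 4.3.3, with a mean-variance trend, two-sided, adjusted over 16919 genes not at 0 in every library, threshold 0.05. The scale compresses differences of low genes. The test was also run on simulated data with independent libraries, which leaves out the likeness of replicates 3 and 4. The outcome is not given here, so nothing is read from that run. Differences between genes within a library used an exact sign-flip permutation test (scipy 1.17.1). The genes, the 8 pathway lists and the 7 lists of cell markers were chosen with earlier results of these data known. The genes named from each list were the 3 with the highest mean RPKM and the 1 with the lowest, and the 3 nearest in pattern to each member with a mean of at least 1 RPKM. Other list genes, among them Slc30a1, Pgf, Apoa1, Cyp3a11, Nefl, Rbfox3, Gfap and S100b, and the whole list of neuronal and glial markers were chosen after their values were seen. The alternatives were a pseudocount of 0.1, libraries rescaled to equal RPKM sums, a minimum of 0.1 RPKM, no trend, each replicate left out, and replicates 3 and 4 averaged, the last chosen after the data were seen.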

Additional observations from a re-analysis of the deposited data

Results flagged for a closer look

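In a group of 4 libraries, 1 library stood far from the other 3 for 14 of 75 values examined, where chance gives about 1 in 20 for 4 independent libraries. Replicates 3 and 4 were nearly alike (root mean square log2 difference 0.164, against 0.573 to 0.798 for other pairs), so that rate may not hold here. Replicate 2 stood apart in the balance of the metallothioneins. The ratio of Mt3 to Mt1 was 0.0982 there against 0.517 to 0.566 in the others, that of Mt3 to Mt2 was 0.143 against 0.655 to 0.725, and Mt3 took 5.51% of the metallothionein sum against 23.2% to 23.3%. These 3 values rest on the same genes.

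Replicate 1 stood apart for Ins2 (1091 RPKM, lowest), and was highest for Sgk1 (36.2 RPKM), Cd68 (167 RPKM), Col1a1 (1.34 RPKM), Pdgfra (3.12 RPKM) and Heph (0.03 RPKM). The other values were at or near the level of single reads, with Slc30a10 at 0.05 RPKM and Cdh5 at 0.05 RPKM in replicate 2, Cpa1 at 0.26 RPKM in replicate 3, and Steap4 at 0.04 RPKM and Col3a1 at 0.01 RPKM in replicate 4.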

How the results depend on the processing

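No paired analysis was possible because the series has 1 group. Between 10788 and 11066 genes lay above 1 RPKM under every alternative run, against 11001. The number below was 4423, and 1889 with only genes of at least 0.1 RPKM, since that filter removes low genes from the test. Leaving out each replicate gave 4120 to 4204 below. The 3 differences between genes kept their direction in every alternative run. Each had the same sign in 4 of 4 libraries, so none of these runs could have reversed it. Mt1 minus Mt2 ranged from 0.31 to 0.42, Slc39a14 minus Slc39a10 from 0.57 to 0.78 and Slc39a10 minus Slc39a4 from -6.15 to -5.62 on the log2 scale, and with 3 libraries the smallest possible exact permutation p is 0.25. Mean levels of the 8 genes moved by less than 1 SD. With 4 libraries, leaving out 1 or averaging replicates 3 and 4 cannot move a mean that far, so nothing is read from those runs. For Mt3 the mean was 919 RPKM without replicate 4 and 1346 RPKM without replicate 2, against 1100 RPKM with all libraries. With replicates 3 and 4 averaged as 1, Mt3 had a mean of 942 RPKM. Among the 8 genes and those named as highest or lowest of each list, only the call of Col1a1 changed, to below 1 RPKM without replicate 1. Calls of other genes named in the text were not compared between these runs. Depth limits statements on Mt4 and on genes of a few reads.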
